A study of Mus musculus with 18 samples.

Results

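The glycolytic enzymes are 10 genes of the central pathway from glucose to lactate, Hk2, Gpi1, Pfkp, Aldoa, Tpi1, Gapdh, Pgk1, Pgam1, Pkm and Ldha. They are listed by name, so no measured value enters the rule, and each matched 1 row of a counts table of 51467 genes. The table came from polysome profiling of mouse embryonic stem cells (ESCs), in which messages are separated on a sucrose gradient by the number of ribosomes they carry. Wild type (WT) ESCs of the V6.5 line were compared with Dgcr8 knockout (KO) ESCs, a line made earlier, so that the genotype and the line cannot be told apart. Both were grown in medium with 15% serum, LIF and the inhibitors PD0325901 and CHIR99021, and both were given 100 ug/ml cycloheximide for 2 minutes before lysis to hold ribosomes in place. For each genotype 3 gradients were collected as monosomes (1 ribosome), low polysomes (2 to 4 ribosomes) and high polysomes (4 or more), which gave 18 libraries in 6 groups of 3.

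Glycolysis splits glucose into pyruvate in the cytoplasm, and lactate dehydrogenase turns pyruvate into lactate. Mouse ESCs use it heavily. DGCR8 binds primary microRNA transcripts for cleavage by DROSHA, and ESCs without it lack canonical microRNAs, among them the ESC-enriched cell cycle (ESCC) microRNAs of the miR-290 and miR-302 clusters, which were reported to promote glycolysis. The comparison here asks how the messages of the enzymes, and their loading with ribosomes, differed between cells with and without these microRNAs.

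The ESCC microRNAs are shown because they share bases 2 to 8, the seed that pairs with target messages and that is set in capitals. The mature sequences below, 5′ to 3′, are those of RefSeq (GRCm38.p6). The first 3 lie on chromosome 7 and the last 2 on chromosome 3.
miR-291a-3p: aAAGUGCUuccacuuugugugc
miR-294-3p: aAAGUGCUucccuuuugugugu
miR-295-3p: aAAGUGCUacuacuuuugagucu
miR-302b-3p: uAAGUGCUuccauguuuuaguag
miR-302d-3p: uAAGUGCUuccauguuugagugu

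A message that pairs with this seed holds AGCACTT. The annotated 3′ untranslated regions of all 10 enzymes were searched on the message strand for this match to bases 2 to 8, or for a match to bases 2 to 7 followed by an A. A match was found in 2 of 10, Pfkp and Ldha, and neither was an 8mer, which has both. Among 11670 protein-coding genes tested, 2259 (19.4%) held a match and 392 (3.36%) held an 8mer. The sites are shown with the match to bases 2 to 8 in capitals, on the message strand. That of Pfkp lies in the last of 22 exons at chr13:6581368-6581391 (GRCm38, minus strand), and that of Ldha in the last of 8 exons at chr7:46855148-46855171 (plus strand).
Pfkp: agttatttatcAGCACTTtatgga
Ldha: ccccgtgtcctAGCACTTcactgt

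The libraries held 1151649 to 4984833 reads. The enzymes together took 0.175 to 0.178% of the reads of WT monosomes and 0.0871 to 0.0992% of those of KO monosomes. Their share was 0.149 to 0.162% in WT low polysomes against 0.0984 to 0.125% in KO. In high polysomes it was 0.213 to 0.254% in WT against 0.155 to 0.186% in KO, so that the genotypes did not overlap in any fraction. Aldoa held the most of these reads, 22402 over the 18 libraries, with Pkm next at 16680. Taken singly in high polysomes, Hk2, Tpi1, Pkm and Ldha overlapped between genotypes, Gpi1 was higher in KO, and Pfkp and Aldoa were lower. The share of all genes that overlap there was not counted. The shares are of raw totals, on which scale the median log2 change of all genes in high polysomes was -0.31. Aldoa held 1904 to 2324 of the 5672 to 6531 enzyme reads of a WT high polysome library. In KO it held 1383 to 2093 of 5543 to 9261. Without the reads of Aldoa the shares overlapped between genotypes in high polysomes, but not in monosomes or low polysomes. Levels of Dgcr8 in CPM (counts scaled to a common library size by TMM) were 68.4 to 79.6 in WT and 47.3 to 52.0 in KO monosomes. In low polysomes they overlapped, at 51.8 to 70.0 in WT and 39.0 to 58.6 in KO. They were 26.1 to 29.6 in WT and 8.73 to 23 in KO high polysomes. Dgcr8 was called in high polysomes alone (-1.01), by limma but not by edgeR or DESeq2. Its reads come from the 3′ end, and the deleted part of the gene is not given in the labels, so they are a loose check of the genotype. All 10 ESC markers examined, among them Pou5f1, Sox2 and Nanog, were detected, with a summed level of 3744 to 6573 CPM in WT and 4146 to 5705 CPM in KO libraries. Single markers moved with genotype: in KO high polysomes Pou5f1 (-1.42) and Dppa5a (-1.65) fell and Klf2 (1.38) rose, and the median change in translation level of the 10, explained below, was -0.56. The fibroblast markers examined, which would mark feeder cells, summed to 7.01 to 12.3 CPM in WT and 2.24 to 21.5 CPM in KO libraries, with Dcn at 0 in 5 of the 6 groups and Postn in 4. The fibroblast gene Col1a1 and the primed epiblast gene Pou3f1 were called lower in KO cells in all 3 fractions, and the part of these markers in the results of the enzymes was not tested. Primitive endoderm markers summed to at most 7.93 CPM, trophectoderm markers to at most 16.5 CPM and markers of the formative or primed epiblast to at most 146 CPM in any library.

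Of the 10 enzymes, 9 passed the filter of 3 CPM in at least 3 libraries. Pgam1, which moves the phosphate of 3-phosphoglycerate, had 0 to 5 reads per library and was not tested. Gapdh, which makes the first high-energy phosphate of the pathway, had 2 to 27 reads, and Pgk1, which uses it to make ATP, had 1 to 13. Their values therefore carry wide errors. Only 9.53% of the 50-base windows in the last 500 bases of the Gapdh transcript were absent from transcripts of other annotated genes, and 138 other genes shared at least 1 window. Reads without a unique alignment were left out by the authors, so the counts hold only reads that could be placed at 1 site. For Pgk1 the share of windows absent from other genes was 92.7% and for Pgam1 100%, but copies outside annotated transcripts were not searched. Whether reads of Gapdh, Pgk1 or Pgam1 were lost in alignment was not tested. Hk2, Pfkp, Tpi1, Pkm and Ldha were at 100%, Aldoa at 96.7% and Gpi1 at 95.8%.

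**Figure D1:**
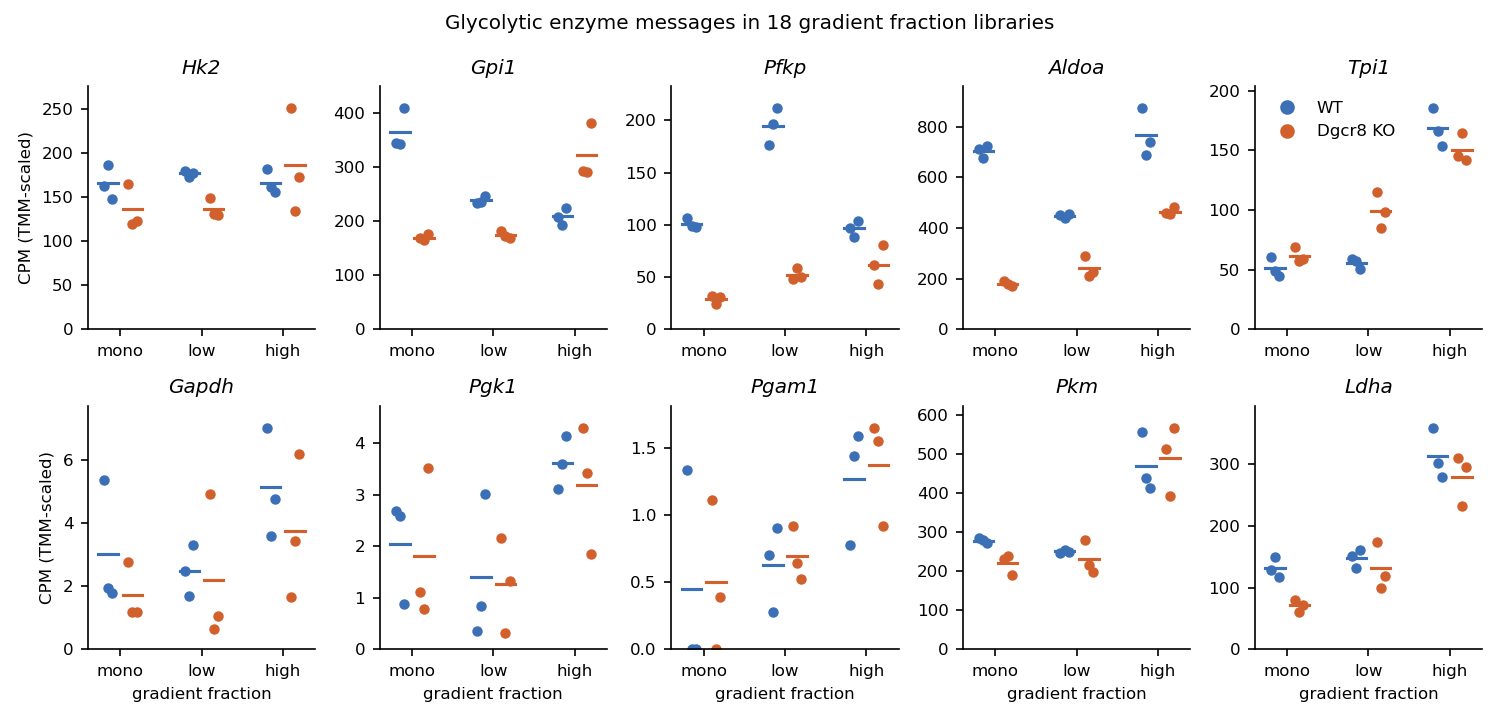
Level of each of the 10 enzymes (y axis, TMM-scaled CPM from 0, a scale of its own in each panel) by gradient fraction (x axis). Points are the 3 libraries of a group and bars their means. Pfkp and Aldoa were lower in every KO library than in every WT library of the same fraction, and Gapdh, Pgk1 and Pgam1 stayed under 8 CPM.

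In monosomes the messages of 3 enzymes fell in KO cells and none rose. These were Gpi1, Pfkp and Aldoa, which carry out consecutive steps in the upper pathway. The count is 3 of 9 tested, beside 9.63% of all 12851 genes that were called lower and 18.1% called in either direction in this fraction (adjusted p under 0.05 and a change over 2-fold). The median log2 change of the 9 was -0.86, against -0.05 over all genes, and 8 of the 9 fitted values were negative. In these bulk samples fewer cells with a message and less of it per cell cannot be told apart, and each level is relative to the other messages of its fraction.

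Gpi1 (ENSMUSG00000036427, chr7:34201330-34230336, minus strand, mm10) converts glucose 6-phosphate to fructose 6-phosphate. Its levels in WT monosomes were 344, 341 and 408 CPM, and in KO monosomes 168, 165 and 175 CPM. The KO gradients were all lower, and the fitted change was -1.10 ± 0.12 (log2, SE, n = 3 per group; adjusted p = 1.74e-09). In low polysomes it was at 233, 236 and 246 CPM in WT and 182, 173 and 169 CPM in KO. In high polysomes the order was turned around, with 208, 193 and 224 CPM in WT and 293, 291 and 381 CPM in KO. The genotypes did not overlap in either polysome fraction, but the changes, of -0.45 ± 0.12 (adjusted p = 0.00131) and 0.62 ± 0.12 (adjusted p = 1.47e-05), were under 2-fold.

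Pfkp (ENSMUSG00000021196, chr13:6579768-6648777, minus strand) is the platelet form of phosphofructokinase, which carries out the committed step of the pathway. WT monosomes held 106, 98.7 and 98.1 CPM and KO monosomes 31.7, 24.5 and 30.6 CPM. In low polysomes the levels were 177, 197 and 212 CPM in WT and 47.6, 59.0 and 49.7 CPM in KO. Both fractions showed a drop in every KO gradient, with a log2 change of -1.82 ± 0.20 in monosomes (adjusted p = 6.78e-10) and -1.91 ± 0.15 in low polysomes (adjusted p = 4.51e-14). In high polysomes the gap was smaller, with 97.1, 88.7 and 104 CPM in WT and 61.2, 43.2 and 80.7 CPM in KO, a change of -0.67 ± 0.15 (adjusted p = 0.000209) that did not pass the fold threshold. Pfkp is 1 of the 2 enzymes with an ESCC seed match.

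Aldoa (ENSMUSG00000030695, chr7:126795234-126808875, minus strand) is the aldolase that cuts fructose 1,6-bisphosphate into trioses. Its levels were 712, 677 and 724 CPM in WT monosomes and 192, 177 and 169 CPM in KO, a change of -1.98 ± 0.12 (adjusted p = 3e-16), or 3.93-fold. In low polysomes they were 453, 440 and 454 CPM in WT and 289, 209 and 227 CPM in KO. In high polysomes they were 873, 686 and 740 CPM in WT and 457, 456 and 481 CPM in KO. All KO values were below all WT values here too, with changes of -0.91 ± 0.12 and -0.71 ± 0.11 that were under 2-fold. Without KO replicate 1 the low polysome change was -1.04 and passed (adjusted p = 5.36e-10).

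In low polysomes Pfkp was the 1 enzyme of 9 that passed, beside 25.0% of all genes. In high polysomes none passed, beside 33.1% of all genes, and the median of the 9 was -0.17 against -0.08 over all genes. With the adjusted p alone and no fold threshold, 3 enzymes were called in high polysomes by limma, Gpi1 higher and Pfkp and Aldoa lower, beside 60.7% of all genes. edgeR and DESeq2 with the fold threshold also called none there. At an unadjusted p under 0.05 it was also 3, beside 64.2% of all genes.

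**Figure D2:**
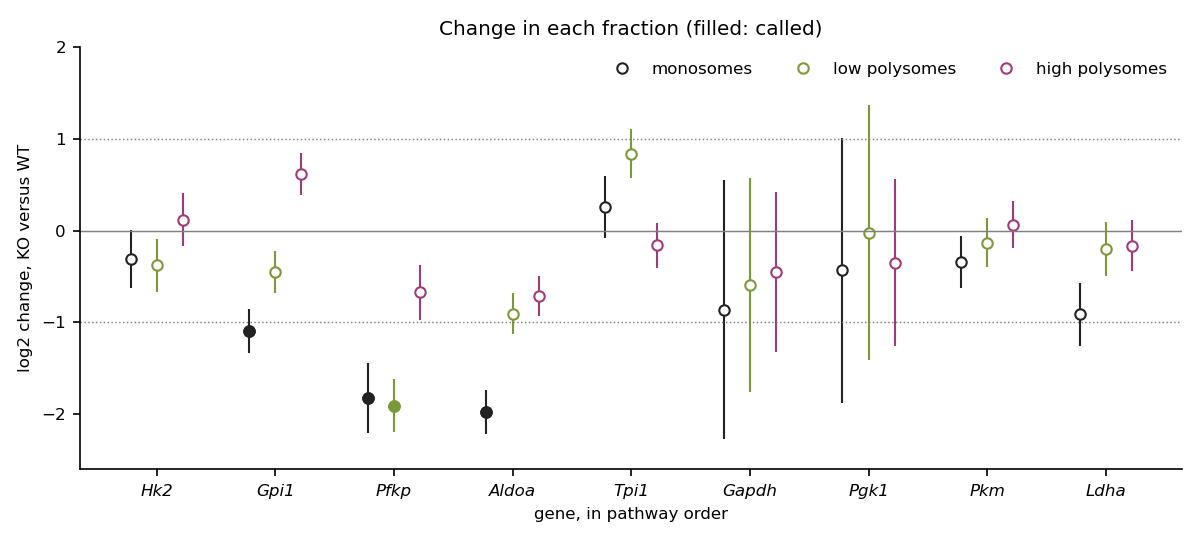
Change between KO and WT cells (y axis, log2) in monosomes, low polysomes and high polysomes for the 9 enzymes tested, in pathway order (x axis). Bars are 95% confidence intervals, filled points were called and dotted lines mark 2-fold. The 4 filled points are Gpi1, Pfkp and Aldoa in monosomes and Pfkp in low polysomes, and the widest bars belong to Gapdh and Pgk1.

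Hk2, Tpi1, Ldha and Pkm were not called between genotypes in any fraction. Hk2 (ENSMUSG00000000628, chr6:82725025-82774454, minus strand), a hexokinase that traps glucose in the cell as glucose 6-phosphate, was at 163, 186 and 148 CPM in WT monosomes and 165, 120 and 123 CPM in KO, which overlapped. Its changes were -0.31 ± 0.16 in the monosome fraction, -0.38 ± 0.15 in the low and 0.12 ± 0.15 in the high polysome fraction, and none was called. Tpi1 (ENSMUSG00000023456, chr6:124810586-124814296, minus strand) interconverts the triose phosphates that aldolase makes. In low polysomes it was at 58.5, 57.5 and 50.3 CPM in WT and 115, 85.2 and 98.0 CPM in KO. The KO gradients were all higher, but the change of 0.84 ± 0.14 (adjusted p = 2.09e-06) was under 2-fold. Tpi1 overlapped between genotypes in monosomes and in high polysomes, with changes of 0.26 ± 0.17 and -0.16 ± 0.12.

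Ldha (ENSMUSG00000063229, chr7:46845839-46855627, plus strand), the A subunit of lactate dehydrogenase, was at 129, 150 and 117 CPM in WT monosomes and 80.0, 61.0 and 72.1 CPM in KO. The groups did not overlap, and the change of -0.91 ± 0.18 (adjusted p = 5.95e-05) was under 2-fold. In high polysomes Ldha was at 359, 302 and 280 CPM in WT and 310, 233 and 295 CPM in KO, which overlapped (-0.17 ± 0.14). The fitted changes of both enzymes with an ESCC seed match, Ldha and Pfkp, were negative in all 3 fractions, as were those of Aldoa, Gapdh and Pgk1, which hold none. Gapdh (ENSMUSG00000057666, chr6:125161853-125166467, minus strand) had changes of -0.86 ± 0.72, -0.59 ± 0.60 and -0.45 ± 0.44, and Pgk1 (ENSMUSG00000062070, chrX:106187100-106203699, plus strand) of -0.43 ± 0.74, -0.02 ± 0.71 and -0.35 ± 0.47 in monosomes, low and high polysomes. At these depths a 2-fold difference in monosomes in either gene was not detectable. Pgam1 (ENSMUSG00000011752, chr19:41911871-41918664, plus strand) had 2, 0 and 0 reads in WT monosomes and 2, 0 and 1 in KO, and 2, 4 and 5 in WT high polysomes against 5, 5 and 4 in KO.

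Pkm (ENSMUSG00000032294, chr9:59656368-59679375, plus strand) encodes the pyruvate kinase that makes pyruvate and ATP, as the M1 or M2 form. It was at 284, 279 and 271 CPM in WT monosomes and 232, 239 and 191 CPM in KO, a change of -0.34 ± 0.14 (adjusted p = 0.0559). In high polysomes it was at 555, 439 and 413 CPM in WT and 513, 392 and 567 CPM in KO, which overlapped (0.07 ± 0.13). A second gene of unknown class, Gm49759 (ENSMUSG00000111394, chr9:59672814-59676700), is annotated on the same strand inside Pkm and held 6417 reads over the 18 libraries, beside 16680 for Pkm. It was singled out after its values were seen. Reads that overlap both genes were counted for neither.

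Gm49759 was distributed over the gradient unlike Pkm. In WT cells it was at 205, 193 and 185 CPM in monosomes and 9.75, 15.5 and 18.2 CPM in high polysomes. In KO cells it was at 299, 389 and 260 CPM in monosomes and 25.1, 61.2 and 22.3 CPM in high polysomes. It rose in KO high polysomes by 1.15 ± 0.30 (log2; adjusted p = 0.00108). With its reads added to those of Pkm, the changes between genotypes were 0.17, 0.02 and 0.13 in the 3 fractions from monosomes upward, none of them called. Which of these reads belong to Pkm messages was not tested.

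**Figure D3:**
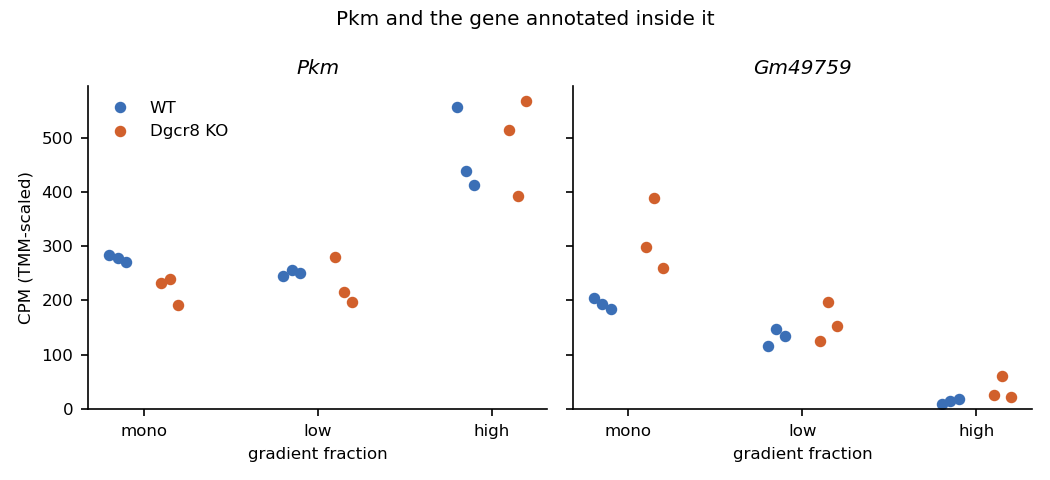
Levels of Pkm (left) and Gm49759 (right) in TMM-scaled CPM (y axis, from 0) by gradient fraction (x axis), with 1 point for each of the 3 libraries of a group. Pkm was highest in high polysomes in both genotypes, where Gm49759 was at 9.75 to 61.2 CPM and its monosome libraries were at 185 to 389 CPM.

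The translation level of a message, its high polysome to monosome ratio, was next compared between genotypes. It rose in KO cells for 3 of the 9 enzymes, Gpi1, Pfkp and Aldoa, and fell for none, beside 6.29% of all genes called higher and 15.1% called in either direction. The median change of the 9 was 0.43, against 0.01 over all genes, and 8 of the 9 fitted values were positive. These are the enzymes whose monosome level fell, and both comparisons use the same monosome libraries. More of the message in high polysomes and less of it in monosomes cannot be told apart in a ratio. Gpi1 had both, whereas Pfkp and Aldoa were lower in high polysomes too, by less than in monosomes.

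Gpi1 had log2 translation levels of -0.72, -0.82 and -0.86 in the WT gradients and 0.80, 0.81 and 1.12 in the KO gradients. The KO gradients were all higher, and the change was 1.72 ± 0.17 (adjusted p = 5.07e-10). Aldoa had 0.29, 0.02 and 0.03 in WT and 1.25, 1.36 and 1.51 in KO, a change of 1.26 ± 0.16 (adjusted p = 1.72e-07). Pfkp had -0.13, -0.15 and 0.08 in WT and 0.93, 0.80 and 1.38 in KO, a change of 1.15 ± 0.25 (adjusted p = 0.000415). Scaled to total counts, which lowers the median change of all genes from 0.01 to -0.32, Gpi1 passed alone, with Aldoa at 0.93 and Pfkp at 0.82. Without KO replicate 3 the change of Pfkp was 0.97 and missed the fold threshold.

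The ratios between neighbouring fractions were compared in the same way. The low polysome to monosome ratio rose for 1 enzyme, beside 1.23% of all genes called higher and 5.03% in either direction. This was Aldoa, with a change of 1.07 ± 0.17 (adjusted p = 9.91e-06). The ratio in single gradients was -0.65, -0.62 and -0.67 in WT and 0.59, 0.24 and 0.43 in KO. The change was 0.94 with total counts and 0.99 without KO replicate 1, both short of 2-fold. For Gpi1 this ratio changed by 0.65 ± 0.17 (adjusted p = 0.0076), also short of 2-fold. The high to low polysome ratio rose for 2 enzymes, beside 2.29% of all genes called higher and 5.18% in either direction. These were Gpi1 at 1.07 ± 0.17 (adjusted p = 1.54e-05) and Pfkp at 1.23 ± 0.21 (adjusted p = 7.27e-05). Neither passed without KO replicate 3, with 0.91 for Gpi1 and 0.96 for Pfkp. Tpi1 had the opposite sign, at -0.997 ± 0.18 (adjusted p = 0.00017), and narrowly missed the fold threshold. It passed at -1.01 with edgeR, -1.195 with total counts and -1.11 without KO replicate 2.

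Ldha had translation levels of 1.47, 1.001 and 1.26 in WT and 1.95, 1.92 and 2.02 in KO, which did not overlap. Its change of 0.75 ± 0.23 (adjusted p = 0.0104) was under 2-fold. Hk2 had 0.16, -0.21 and 0.07 in WT and 0.60, 0.17 and 0.49 in KO, with a change of 0.43 ± 0.22 (adjusted p = 0.141). Tpi1 was the enzyme with a negative value, at 1.61, 1.76 and 1.78 in WT and 1.06, 1.501 and 1.26 in KO, with a change of -0.42 ± 0.21 (adjusted p = 0.141). Pkm overlapped between genotypes, with a change of 0.41 ± 0.19 (adjusted p = 0.112) that became -0.04 with the reads of Gm49759 added. Gapdh and Pgk1 had changes of 0.41 ± 0.85 and 0.08 ± 0.87.

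**Figure D4:**
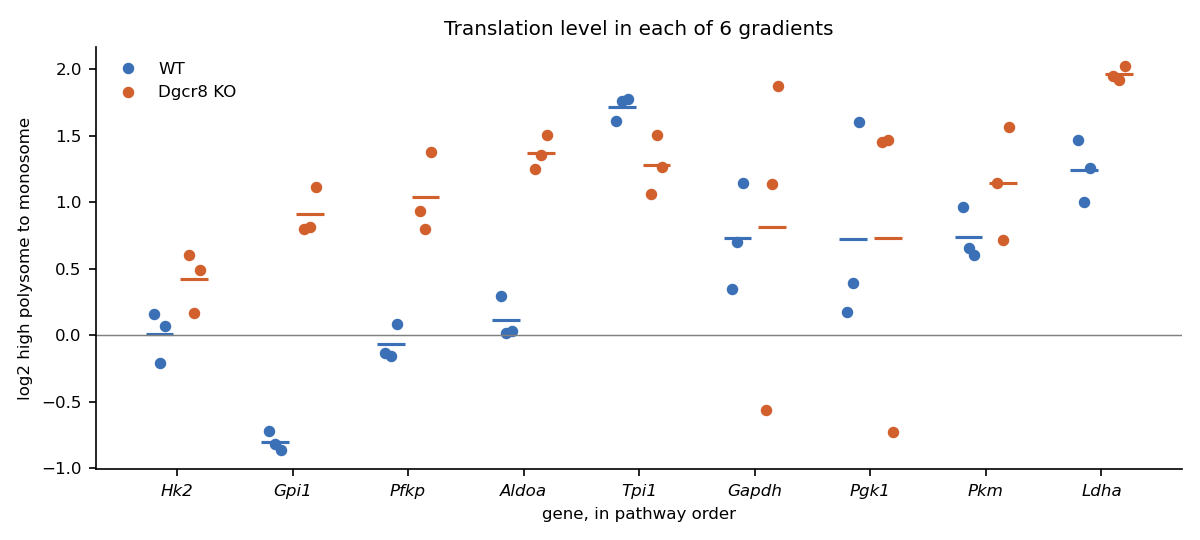
Translation level (y axis, log2 high polysome to monosome ratio of TMM-scaled CPM) in each of the 3 WT and 3 KO gradients for the 9 enzymes tested, in pathway order (x axis), with bars at the means. The KO gradients lie above all WT gradients for Hk2, Gpi1, Pfkp, Aldoa and Ldha and below them for Tpi1, while Gapdh, Pgk1 and Pkm overlap. The share of all genes that separate in this way was not counted. On the adjusted p alone, 28.2% of all genes were called in either direction.

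Within WT cells 2 of 9 enzymes were enriched more than 2-fold in high polysomes over monosomes, Tpi1 at 1.71 ± 0.16 and Ldha at 1.23 ± 0.16, beside 10.7% of all genes called higher and 30.1% in either direction. Within KO cells 5 of 9 were, beside 17.5% of all genes called higher and 43.0% in either direction. These were Ldha at 1.98 ± 0.16, Aldoa at 1.38 ± 0.12, Tpi1 at 1.29 ± 0.14, Pkm at 1.15 ± 0.14 and Pfkp at 1.08 ± 0.19. Pkm dropped out with the reads of Gm49759 added, at -0.02, and Pfkp and Pkm with total counts, at 0.83 and 0.90. In KO cells Tpi1 and Aldoa differed by less than the sum of their errors, whereas the next enzyme below Ldha in WT cells, Pkm, was at 0.74 ± 0.14. The median of the 9 was 0.70 in WT and 1.12 in KO cells, against -0.01 and -0.07 over all genes.

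The change in translation level rose with coding length over the protein-coding genes tested. Its median was -0.94 in the decile with the shortest coding sequences (75 to 522 nt), -0.15 in the fourth (948 to 1140 nt) and 0.62 in the tenth (3414 nt or more). The enzymes run from Tpi1, with a coding sequence of 897 nt, to Hk2, with 2751 nt. Against genes of their own decile, Gpi1 (1674 nt) stood above 97.9% of genes, Aldoa (1092 nt) above 97.2%, Ldha (996 nt) above 90.2% and Pfkp (2352 nt) above 89.4%. Hk2 and Tpi1 stood at 45.2% and 45.3%, near the middle of theirs. Hk2 thus had a positive value and Tpi1 a negative one that were near the medians of their deciles, 0.49 and -0.34. Pkm was at 66.8%, and Gapdh and Pgk1, with few reads, at 78.3% and 58.3%. Whether coding length had a part in these changes was not tested.

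**Figure D5:**
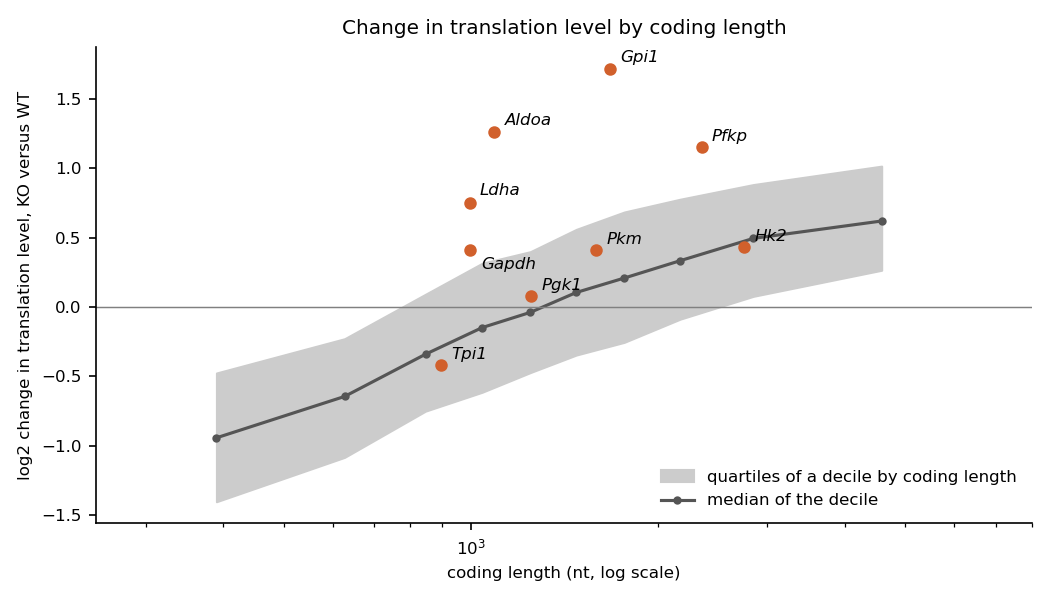
Change in translation level between KO and WT cells (y axis, log2) against coding length (x axis, nt, log scale). The line joins the medians of the deciles of protein-coding genes by coding length, at each decile's median length, the band spans their quartiles, and the points are the 9 enzymes tested. Gpi1, Aldoa, Pfkp, Ldha and Gapdh lie above the band, and Hk2 and Tpi1 lie near the line.

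Of 65 other genes of the pathway and its regulation, 49 were tested. Hk1 stands in 2 of the lists below and is counted once here. In monosomes 2 were called higher and 3 lower, in low polysomes 6 and 5, and in high polysomes 6 and 5, beside the 18.1%, 25.0% and 33.1% of all genes called. Their median changes were -0.11, 0.28 and 0.42. Their translation level rose for 7 and fell for 1, beside 6.29% of all genes called higher and 15.1% in either direction. The median change in translation level was 0.22 over the 49, with 30 fitted values positive, against 0.43 for the 9 enzymes. By list it was 0.63 for other isozymes, 0.50 for transport and 0.43 for pyruvate dehydrogenase and carriers. It was 0.12 for regulators of flux and 0.11 for factors known to act on glycolytic genes.

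Among 12 of 21 other glycolytic isozymes that were tested, Aldoc, the brain aldolase, rose in low polysomes (1.19) and high polysomes (1.16), opposite in sign to Aldoa. Bpgm, which makes 2,3-bisphosphoglycerate, fell in all 3 fractions, with changes of -1.57, -1.53 and -1.66 in monosomes, low and high polysomes. Eno2, the neuronal enolase, fell in both polysome fractions (-1.11 in low and -1.65 in high polysomes), at 1 to 3 reads per library in KO high polysomes. Ldhc, the testis lactate dehydrogenase, fell in high polysomes, where it had 8, 14 and 12 reads in WT and 4, 0 and 3 in KO. Pgam2, the muscle mutase, rose in low polysomes (1.12) at 6 to 21 reads per library, a call that DESeq2 did not make. The translation level rose for Hk1, a housekeeping hexokinase (1.24), Pfkm, the muscle phosphofructokinase (1.24), and Eno3, the muscle enolase (1.09). Eno1, the enolase of most cells, was not called in any of these comparisons, with changes of -0.51 ± 0.28, 0.15 ± 0.31 and 0.02 ± 0.19 in monosomes, low and high polysomes, and 24.8% of its end windows were absent from other genes.

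Among 6 of 9 genes of glucose and lactate transport that were tested, none was called between genotypes in a fraction by limma, edgeR or DESeq2. At an unadjusted p under 0.05 limma counted 2 in the monosome, 5 in the low polysome and 6 in the high polysome fraction, beside 45.5%, 57.2% and 64.2% of all genes. All 6 fitted values in high polysomes were positive, with a median of 0.58. The translation level of Slc16a3, a lactate exporter, rose by 1.005 (adjusted p = 0.00606). Among 15 of 18 regulators of flux, with Hk1 counted again, Pdk1, the kinase that shuts off pyruvate dehydrogenase, rose in all 3 fractions, by 1.80, 1.67 and 1.40 in monosomes, low and high polysomes. Its reads in monosomes were 29 to 55 in WT and 189 to 281 in KO libraries. Gpd2, the mitochondrial glycerol phosphate dehydrogenase, rose in low (1.05) and high polysomes (1.68) and in translation level (1.24), and Pgm1, which links glycogen to glycolysis, rose in low (1.196) and high polysomes (1.51). Fbp2, a fructose bisphosphatase that works against phosphofructokinase, fell in all 3 fractions, with changes of -2.31, -2.07 and -2.09. It had few reads, 5 to 11 in WT and 1 to 5 in KO monosome libraries. Of the phosphatases that reactivate pyruvate dehydrogenase, Pdp1 fell in low polysomes (-2.36, at 0 to 8 reads per library, called by limma but not by edgeR or DESeq2) and Pdp2 rose in translation level (1.15).

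All 7 genes of pyruvate dehydrogenase and the pyruvate carriers were tested and none was called in a fraction by limma, edgeR or DESeq2, with 1, 5 and 5 at an unadjusted p under 0.05 by limma, beside the same shares of all genes. The translation level of Mpc2, a subunit of the mitochondrial pyruvate carrier, fell by 1.496 (adjusted p = 2.88e-05). Among 10 of 11 factors known to act on glycolytic genes, Mycn rose in high polysomes (1.08), and Ptbp1, a splicing factor that favours the M2 form of Pkm, rose in translation level (1.12). Lin28a, an RNA-binding protein that blocks let-7, fell in all 3 fractions, with changes of -3.99, -4.02 and -4.91, and its paralog Lin28b rose by 2.20, 3.32 and 1.46. KO low polysomes held 48, 4 and 6 reads of Lin28a, against 154, 186 and 170 in WT. Mbd2, a methyl-CpG binding protein whose message holds an 8mer seed match, was not called, with changes of 0.54 ± 0.24, -0.02 ± 0.21 and 0.13 ± 0.24. Of the other pathway genes called above, Aldoc, Bpgm, Pdk1, Pdp2, Mpc2, Mycn and Lin28b held a seed match, with changes of both signs. Of those tested but not called, Slc16a1, Pdk4 and Mpc1 held a match, that of Mpc1 being an 8mer. Whether the matches had a part in these changes was not tested. Myc, a transcription factor that drives many glycolytic genes, had 0 to 4 reads per library and was not tested.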

How the data were processed

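Libraries were made with the QuantSeq 3′ FWD kit, which reads the 3′ ends of polyadenylated messages, so a count does not grow with transcript length. The authors trimmed reads with Cutadapt 1.14, aligned them to mm10 with STAR 2.5.3a, kept unique alignments, and deposited raw, strand-specific counts per gene (featureCounts 1.5.3, GENCODE M14 basic without ribosomal RNA genes). Molecular identifiers are not mentioned, and PCR copies are counted. Another column that the authors deposited, the exonic length of each gene, was not used to scale counts.

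The 92 spike-in rows (0.000522 to 0.00215% of reads) were left out. Symbols, transcripts and coding lengths came from GENCODE M21 on the same build, which matched 51274 genes, with 1 principal transcript per gene. Genes with 3 CPM in at least 3 libraries were fitted with limma-voom (limma 3.58.1, edgeR 4.0.16, R 4.3.3), with TMM factors, 6 group means without a block. P-values are two-sided and were adjusted by Benjamini-Hochberg across the 12851 genes, and a call required both adjusted p below 0.05 and a log2 change beyond 1 either way. All adjusted p-values are from this fit unless another tool is named. Ratios in single gradients use a prior count of 2. The procedure was tested on simulated data. The labels number the replicates but do not say that they were separate cultures, so p-values measure the spread between these samples. Fractions with the same number in a genotype come from the same gradient by their titles. Deviations from group means correlated by 0.03 to 0.14 between them and by 0.00 to 0.10 between same-numbered WT and KO libraries.

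The members and gene lists were chosen with earlier results of these data known. Named genes are the 10 enzymes, Dgcr8, Mbd2, Myc, Eno1, other pathway genes called in a KO against WT comparison or in translation level, and the 5 protein-coding genes with the most similar profile. No genome was used here, so windows were compared with 141767 annotated transcripts. Alternatives were DESeq2 1.42.0, edgeR, limma-trend, other scalings and filters, left-out replicates and a replicate block.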

Additional observations from a re-analysis of the deposited data

Results flagged for a closer look

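Each result here is a difference between the genotypes in how a message was spread over the gradient, found by the interaction of genotype and fraction in limma. The high polysome to monosome ratio was higher in KO cells, on the log2 scale, by 1.72 for Gpi1, 1.15 for Pfkp and 1.26 for Aldoa among the enzymes. Among other pathway genes it was higher by 1.24 for Hk1, 1.24 for Pfkm, 1.09 for Eno3, 1.005 for Slc16a3, 1.24 for Gpd2, 1.15 for Pdp2 and 1.12 for Ptbp1. It was lower for Mpc2, with a change of -1.496. The low polysome to monosome ratio was higher by 1.07 for Aldoa. The high to low polysome ratio was higher by 1.07 for Gpi1 and 1.23 for Pfkp. It was lower for Lin28b, with a change of -1.86 ± 0.63 (adjusted p = 0.0353), an error wider than those of Gpi1 and Pfkp. No group had more than 3 libraries, so single libraries were not screened for outlying values.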

How the results depend on the processing

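Counts of enzymes called are given out of 9. With no fold threshold they were 5 in low and 3 in high polysomes, 3 for the low polysome to monosome ratio and 4 for the WT translation level, beside 52.3%, 60.7%, 11.4% and 54.0% of all genes. With total counts they were 1 for the change in translation level, 0 for the low polysome to monosome ratio and 3 for the KO translation level. Beside them, 18.3%, 6.05% and 42.7% of all genes were called in either direction, and 2.19%, 0.630% and 12.1% higher. Leaving out each replicate in turn gave 3 in monosomes every time, 1 to 2 in low polysomes and 0 in high polysomes. It gave 2 to 3 for the change in translation level, 0 to 1 for the low polysome to monosome ratio and 0 to 3 for high against low polysomes. For the translation level within a genotype it gave 2 in WT and 4 to 6 in KO cells. All genes tested then numbered 12577 to 12723. Of these, 2077 to 2276 were called in monosomes, 2942 to 3193 in low and 3922 to 4202 in high polysomes. For the 3 ratios, in the order above, 1630 to 2065, 557 to 785 and 511 to 809 were called. For the translation level it was 3449 to 3899 in WT and 5115 to 5439 in KO cells. For the KO translation level a count of 6 must include Gapdh or Pgk1, which have few reads, because Gpi1 reached at most 0.997 and Hk2 0.58. The KO translation level of Pkm turned from 1.15 to -0.0193 with the reads of Gm49759 added, a setting chosen after seeing the data. A replicate block kept each count, with 3 enzymes in monosomes and 3 for the change in translation level, and changed no call. Over 1208 refitted values of single enzymes, 57 that were not called under either setting changed sign. Unique windows of 36 bases came to 6.24% for Gapdh, 84.7% for Aldoa and 88.2% for Gpi1, and no enzyme had a match among 8mer sites alone. Low counts limit Gapdh, Pgk1 and Pgam1. Apart from the left-out replicates and the settings named, the counts stayed within 1.5 times.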

Other observations

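Beyond the pathway, 5 protein-coding genes had the profile over the 18 libraries most like the mean of the 9 enzymes tested, each standardised on the log2 CPM scale. They were Cct7, a subunit of the cytosolic chaperonin (Pearson r = 0.955), Mars, the methionyl-tRNA synthetase (0.944), Ctnna1, an alpha-catenin (0.940), Gars, the glycyl-tRNA synthetase (0.940), and Trappc9, a vesicle tethering subunit (0.937). The 18 libraries fall into 6 groups, and all genes of a library share its depth, so these values are a description. The enzymes themselves had r of 0.528 to 0.934 with their own mean, with Pfkp lowest and Ldha highest.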
